A study of Homo sapiens with 6 samples.

Results

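The genes described here are 35 genes of the p53 pathway, taken as the rows of the deposited gene tables whose identifiers map to a list of well-known p53 targets and feedback regulators. All 35 were matched, out of 62492 genes listed. They were measured by RNA-seq of polyA RNA in HCT116, a colorectal carcinoma line of human origin, labelled WT for genotype. One group received control siRNA (siControl) and the other NONO-targeted siRNA (siNONO), each at 20 nM with Lipofectamine RNAiMAX, with 3 libraries per group labelled Set 1, Set 2 and Set 3. The knockdown rests on 1 siRNA duplex, and the time of harvest of these libraries is not given in the sources used here. Nothing in the labels says that the Sets were separate cultures, so the spread between libraries may be partly technical.

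p53 is a transcription factor that accumulates when DNA is damaged or cell division is disturbed. It binds response elements near its target genes and raises their transcripts. Some targets halt the cell cycle, some promote cell death, some repair DNA, some alter metabolism or secretion, and some, such as MDM2, feed back to lower p53 itself. NONO is an RNA- and DNA-binding protein of paraspeckles, and the comparison asks how these p53 genes stood in cells with less of it.

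Promoter sequences are shown first for members in which a p53 response element, a pair of 10-base motifs, lay close to the start of the gene. RefSeq promoters (GRCh38.p14) covering 250 bases before to 50 bases after each start were matched for 31 of the 35 members. The p53 motif was searched by its consensus, which reads the same on both strands, with its central C and G kept, a gap of at most 1 base and at most 3 mismatches over 20 bases. That limit was set after the data had been seen, and no other motif was searched. Such a pair lay in 25.8% of the 31 member genes (8 genes) and in 2.91% of all 27305 genes with a promoter. Counted by promoter, the shares were 20.0% of 45 and 2.38% of 35116. With at most 2 mismatches, 3 member genes remained, or 9.68%, against 0.674% of all genes. The members were listed as well-known p53 targets, so their higher share may follow from the choice of genes and is no independent evidence. Capitals mark the matched pair in each sequence, written 5′ to 3′ on the strand of the gene:
DDB2: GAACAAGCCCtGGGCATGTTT
AEN: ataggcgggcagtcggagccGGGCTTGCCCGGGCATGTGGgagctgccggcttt
MDM2: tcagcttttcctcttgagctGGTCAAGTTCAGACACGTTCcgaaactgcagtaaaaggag
FDXR: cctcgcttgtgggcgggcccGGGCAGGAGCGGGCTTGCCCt
GDF15: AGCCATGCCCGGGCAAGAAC
RPS27L: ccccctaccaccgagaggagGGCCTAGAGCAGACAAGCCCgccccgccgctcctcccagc
SESN1: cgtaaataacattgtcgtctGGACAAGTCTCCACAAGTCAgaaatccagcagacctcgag
PMAIP1: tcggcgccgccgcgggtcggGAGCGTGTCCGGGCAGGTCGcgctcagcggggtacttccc

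The DDB2 sequence lies at chr11:47214979-47214999 on the plus strand, from 6 to 26 bases after the start, and was the only member match with 0 mismatches. AEN, at chr15:88621286-88621339 on the plus strand, and MDM2, at chr12:68808903-68808962 on the plus strand, had 2 mismatches each. The MDM2 window belongs to the inner of its promoters, from which p53-responsive transcripts are known to start. FDXR (chr17:74872995-74873035, minus strand), GDF15 (chr19:18386186-18386205, plus strand), RPS27L (chr15:63157507-63157566, minus strand), SESN1 (chr6:109008998-109009057, minus strand) and PMAIP1 (chr18:59899791-59899850, plus strand) had 3 mismatches each. A match is a likeness of letters, and binding of p53 was not measured. Matches and rises after NONO knockdown did not always go together. PMAIP1 has a match but was not called, and the promoters of CDKN1A and PLK3, the members that rose most, held none.

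The estimated counts summed to between 21765393 and 32659002 per library, and 17000 genes had enough counts for edgeR's quasi-likelihood test, in which the Set was a block and a gene was called at a Benjamini-Hochberg adjusted p of at most 0.05. NONO itself had 496, 495 and 516 CPM (counts scaled to library size with TMM factors) in siControl and 89.5, 95.4 and 100 CPM in siNONO, which left 18.9% of the siControl level (log2 fold change -2.40, standard error 0.0337, adjusted p = 2.47e-13 by edgeR's quasi-likelihood test). The 5 epithelial markers summed to between 2870 and 3010 TPM (the level RSEM scales for transcript length and library size) in siControl and between 2710 and 3000 TPM in siNONO. Markers of leukocytes (4 genes) and endothelial cells (2 genes) stayed at or below 0.74 TPM in sum in every library. The 4 fibroblast markers summed to between 16.4 and 19 TPM in siControl and between 16.2 and 18.3 TPM in siNONO. Nearly all of this was COL1A1, at 17.7 ± 1.32 TPM in siControl and 17.4 ± 1.11 TPM in siNONO. COL1A2 was at 0 in every library, and DCN and LUM stayed at or below 0.08 TPM. In bulk RNA such as this, a change in the share of cells and a change in RNA per cell cannot be told apart.

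Most of the p53 genes were higher after NONO knockdown. Of the 33 members tested, 25 were called higher, 4 were called lower (2 of them also without the Set as a block) and 4 were not called. Over all genes, 23.2% were called higher and 23.4% were called lower. The 4 lower members were MDM4, FBXW7, GADD45A and KITLG, and the 4 not called were PMAIP1, PIDD1, SUSD6 and XPC. EDA2R and SPATA18, the other two members, had at most 11 counts in any library and were not tested.

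The rise was modest for most genes. The median log2 fold change of the members tested was 0.37, with quartiles of 0.24 and 0.55, against a median of -0.0048 for all genes with quartiles of -0.22 and 0.21. Within Sets 1, 2 and 3 the member median was 0.43, 0.37 and 0.31. Of the 25 higher members, 7 rose by at least 1.5-fold and 2 of those, CDKN1A and PLK3, by at least 2-fold. The direction was the same in every Set for 30 members, or 90.9%, against 66.7% of all genes tested. In CPM, every siNONO library lay above every siControl library for 25 members, against 23.9% of all genes, and below for 3 members, against 24% of all genes. The higher members ran from 0.24 (MDM2) to 1.46 (CDKN1A) on the log2 scale, and 12 members stood among the highest 10% of all genes by log2 fold change.

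**Figure D1:**
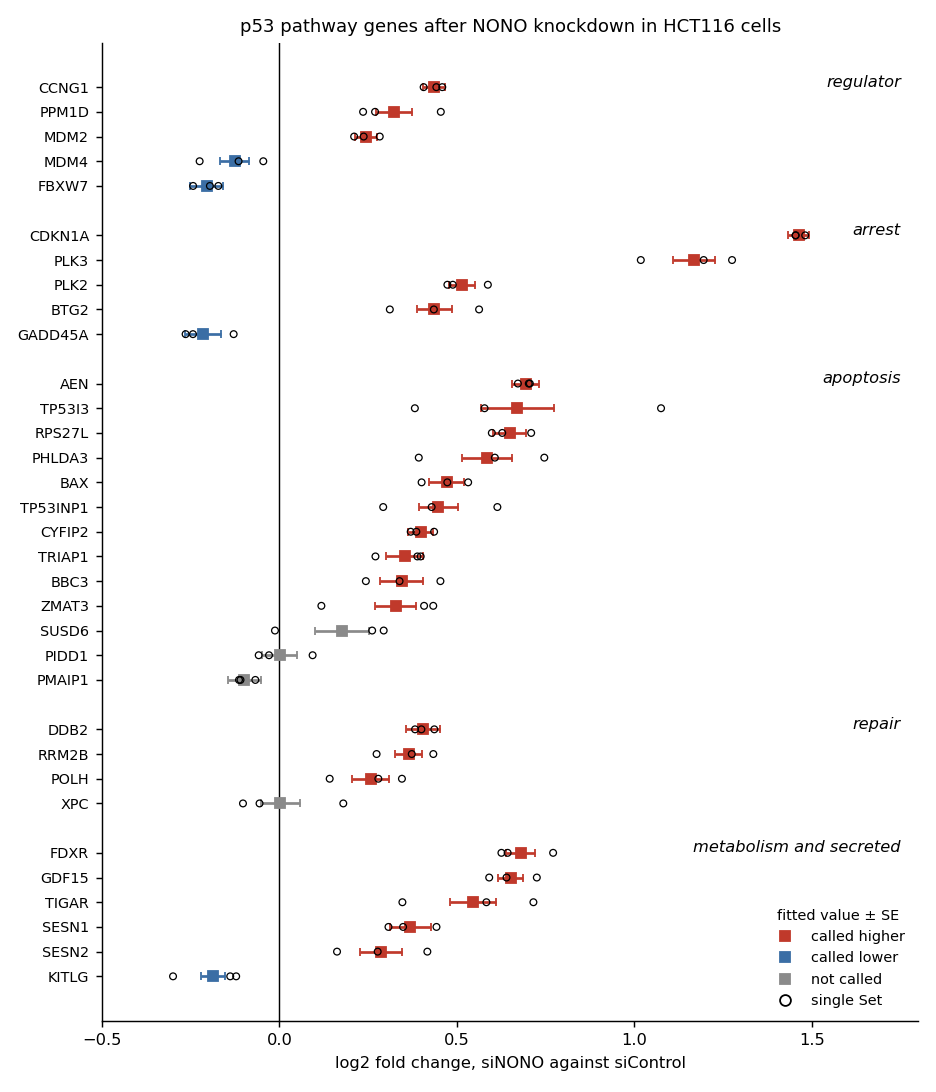
Fitted log2 fold change, siNONO against siControl, of the 33 p53 genes tested (horizontal axis), grouped by role, with squares and bars for the fitted value ± SE and open circles for the single Sets. CDKN1A at 1.46 and PLK3 at 1.17 stand apart to the right, 25 genes are called higher, and MDM4, FBXW7, GADD45A and KITLG are called lower.

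Among the arrest genes, the 2 largest rises of the pathway were found. CDKN1A encodes p21, the inhibitor of cyclin-dependent kinases through which p53 halts the cell cycle, and lies at chr6:36644237-36655114 (GRCh37, plus strand). It had 133, 137 and 150.0 CPM in siControl and 372, 375 and 411 CPM in siNONO. Every siNONO library lay far above every siControl library. The rise was 2.76-fold (log2 fold change 1.46, standard error 0.0298, adjusted p = 4.96e-12 by edgeR's quasi-likelihood test). The Set ratios were 1.48, 1.45 and 1.45 on the log2 scale, the closest agreement between Sets of any member tested, and only 0.741% of all genes had a higher log2 fold change.

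PLK3, a stress-responsive kinase of the polo family (chr1:45266049-45271662, plus strand), had 17.6, 17.1 and 21.6 CPM in siControl and 40.3, 41.6 and 43.7 CPM in siNONO. The groups were again far apart. It rose by 1.17 on the log2 scale (standard error 0.0594, adjusted p = 1.24e-08 by edgeR), and 1.25% of all genes stood above it. PLK2, a related kinase that acts on centriole duplication, rose from 81.8, 77.2 and 79.2 CPM to 114, 108 and 119 CPM, a log2 fold change of 0.52 (adjusted p = 2.1e-07 by edgeR). BTG2, an antiproliferative regulator of mRNA decay, rose from 45.2, 41.0 and 50.5 CPM to 61.2, 60.7 and 62.7 CPM, a log2 fold change of 0.44 (adjusted p = 1.44e-05 by edgeR). For both genes every siNONO library lay above every siControl library.

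GADD45A, a growth arrest gene that binds PCNA and stress kinases, went the other way. It had 34.4, 37.6 and 35.04 CPM in siControl and 29.0, 31.3 and 32.05 CPM in siNONO. The siNONO libraries all lay below the siControl ones, by a small margin. On the log2 scale GADD45A changed by -0.21 (standard error 0.0511, adjusted p = 0.00408 by edgeR), and the adjusted p was 0.0585 with DESeq2 and 0.0567 by edgeR without the siControl library of Set 2. The arrest genes thus had 4 called higher and 1 lower of 5 (80% and 20%), against 23.2% and 23.4% of all genes. Their median log2 fold change was 0.52.

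**Figure D2:**
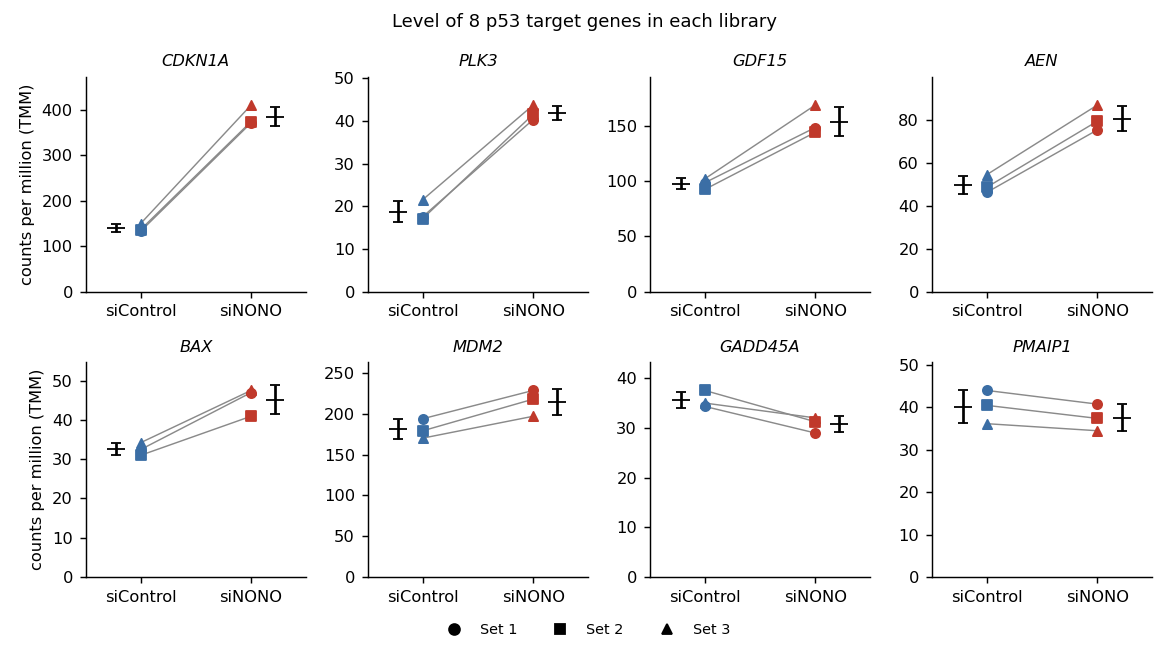
TMM-scaled CPM (vertical axes, from 0) of 8 p53 target genes in the siControl and siNONO libraries, with grey lines joining libraries of the same Set and black bars for the mean ± SD (n = 3). The groups are apart for CDKN1A, PLK3, GDF15, AEN, BAX and MDM2 (siNONO higher) and for GADD45A (siNONO lower), and they overlap for PMAIP1.

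Of the 14 genes of cell death and survival, 13 were tested, 10 were called higher and 3 were not called. Of those tested, 76.9% were higher, against 23.2% of all genes, and their median log2 fold change was 0.40. AEN, a nuclease that degrades DNA and RNA in dying cells and carries the promoter match shown above, rose most. It had 46.3, 48.7 and 54.5 CPM in siControl and 75.4, 79.4 and 86.9 CPM in siNONO (log2 fold change 0.69, standard error 0.0383, adjusted p = 2.44e-08 by edgeR), with Set ratios of 0.70, 0.71 and 0.67. TP53I3, a quinone oxidoreductase linked to oxidative stress, was the least even member. It rose from 12.5, 11.9 and 10.1 CPM to 18.7, 15.5 and 21.4 CPM (log2 fold change 0.67, standard error 0.104, adjusted p = 0.000184 by edgeR), with Set ratios of 0.58, 0.38 and 1.08. All Sets rose, the third by the widest margin.

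The BCL2-family genes did not move alike. BAX, which permeabilizes the outer mitochondrial membrane (chr19:49458072-49465055, plus strand), rose from 32.5, 31.0 and 34.2 CPM to 47.0, 41.0 and 47.5 CPM, a log2 fold change of 0.47 (standard error 0.0485, adjusted p = 5.57e-06 by edgeR). BBC3, which encodes PUMA, a BH3-only activator of cell death, rose from 19.1, 17.8 and 20.1 CPM to 22.6, 22.5 and 27.6 CPM, a log2 fold change of 0.34 (adjusted p = 0.000502 by edgeR). PMAIP1, which encodes NOXA, another BH3-only protein, also carries a promoter match shown above. It had 43.98, 40.5 and 36.1 CPM in siControl and 40.8, 37.4 and 34.5 CPM in siNONO. The groups overlapped, although each Set was slightly lower in siNONO, and PMAIP1 was not called (log2 fold change -0.098, standard error 0.0461, adjusted p = 0.102 by edgeR).

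RPS27L, a ribosomal protein paralog induced by p53, rose from between 35.2 and 36.05 CPM to between 54.4 and 57.6 CPM (log2 fold change 0.65, adjusted p = 1.88e-07 by edgeR). Its sequence is close to that of RPS27, so the share of reads that RSEM gave to each is uncertain. PHLDA3, an inhibitor of AKT at the membrane, rose by 0.58 on the log2 scale, and TP53INP1, a stress protein that helps activate p53, by 0.45. Smaller rises were those of CYFIP2 (0.40), a regulator of actin assembly, TRIAP1 (0.35), a mitochondrial lipid transfer protein that favours survival, and ZMAT3 (0.33), an RNA-binding regulator of splicing. For all of these the siNONO libraries lay above the siControl ones.

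PIDD1, the scaffold of the PIDDosome that activates caspase-2, did not pass the test. It had 37.2, 33.5 and 44.2 CPM in siControl and 36.5, 35.7 and 42.5 CPM in siNONO, with fully overlapping groups (log2 fold change 0.00043, standard error 0.0497, adjusted p = 0.996 by edgeR). SUSD6, a p53-induced membrane protein, had 14.2, 13.0 and 13.3 CPM in siControl and 14.05, 15.6 and 16.3 CPM in siNONO (log2 fold change 0.18, adjusted p = 0.0797 by edgeR). The Set ratios of SUSD6 were -0.012, 0.26 and 0.29, and its adjusted p was 0.0189 without the siControl library of Set 1 and 0.0205 without the siNONO library of Set 1. EDA2R, a death receptor of the TNF receptor family, had 9, 3 and 8 counts in siControl and 10, 11 and 6 counts in siNONO, too few to show a difference.

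Of the 4 repair genes, 3 were called higher (75%, against 23.2% of all genes). The median log2 fold change over the 4 was 0.31. DDB2, which recognizes ultraviolet lesions for nucleotide excision repair and has the full promoter match, rose from 31.2, 30.1 and 30.03 CPM to 40.7, 39.7 and 40.7 CPM. These values were tight within each group and well apart between them (log2 fold change 0.41, standard error 0.0479, adjusted p = 1.84e-05 by edgeR). RRM2B, the ribonucleotide reductase subunit that supplies nucleotides for repair, had 94.8, 91.7 and 82.3 CPM in siControl and 128, 119 and 99.6 CPM in siNONO (log2 fold change 0.36, adjusted p = 6.44e-06 by edgeR). POLH, the polymerase that copies past ultraviolet lesions, had 34.02, 35.4 and 34.95 CPM in siControl and 43.2, 39.0 and 42.4 CPM in siNONO (log2 fold change 0.26, adjusted p = 0.00137 by edgeR). XPC, the damage sensor of nucleotide excision repair, had 53.1, 51.0 and 47.4 CPM in siControl and 49.5, 49.1 and 53.7 CPM in siNONO, overlapping throughout (log2 fold change 0.0029, standard error 0.0544, adjusted p = 0.97 by edgeR). Its Set ratios, -0.10, -0.056 and 0.18, had different signs, so the damage-recognition genes DDB2 and XPC are on different sides of the test. The difference between them was not itself tested.

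The feedback regulators of p53 divided. MDM2, the ubiquitin ligase that marks p53 for degradation (chr12:69201957-69239324, GRCh37, plus strand), had 194, 179 and 170 CPM in siControl and 229, 218 and 197 CPM in siNONO. The groups were apart by a narrow margin, and each Set rose, by 0.24, 0.28 and 0.21 on the log2 scale (fitted 0.24, standard error 0.0308, adjusted p = 3.32e-05 by edgeR). It was the smallest rise among the members called higher. MDM4, a relative of MDM2 that blocks the transactivation domain of p53, had 94.5, 95.2 and 95.3 CPM in siControl and 91.6, 87.9 and 81.6 CPM in siNONO (log2 fold change -0.13, standard error 0.0401, adjusted p = 0.021 by edgeR). Without the Set as a block its adjusted p by edgeR was 0.1, with DESeq2 it was 0.103, and leaving out the Set 3 library of either group or the Set 2 library of either group gave between 0.0753 and 0.123 by edgeR.

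CCNG1, cyclin G1, which recruits a phosphatase to MDM2, rose from 157, 150 and 132 CPM to 216, 204 and 175 CPM (log2 fold change 0.44, adjusted p = 1.99e-07 by edgeR). PPM1D, the WIP1 phosphatase that turns off p53 and its upstream kinases, rose from 43.5, 47.8 and 41.4 CPM to 59.6, 56.3 and 49.9 CPM (log2 fold change 0.32, adjusted p = 0.000185 by edgeR). FBXW7, the ubiquitin ligase subunit that marks cyclin E and MYC for degradation, had 45.0, 43.4 and 40.2 CPM in siControl and 38.0, 38.5 and 35.1 CPM in siNONO. All siNONO libraries lay below the siControl ones, and FBXW7 changed by -0.20 on the log2 scale (standard error 0.0461, adjusted p = 0.00277 by edgeR). Of the 5 regulators, 3 were higher and 2 lower (60% and 40%), against 23.2% and 23.4% of all genes. The median of this group was 0.24, the lowest of the roles.

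Metabolic and secreted targets had 5 genes called higher and 1 lower of 6 tested (83.3% and 16.7%), against 23.2% and 23.4% of all genes. Their median log2 fold change was 0.46. FDXR, the reductase that supplies electrons to mitochondrial ferredoxin, rose from 52.5, 54.8 and 57.9 CPM to 82.1, 84.6 and 98.9 CPM (log2 fold change 0.68, standard error 0.0411, adjusted p = 5.5e-08 by edgeR). GDF15, a secreted stress cytokine of the TGF-beta family, had 98.4, 92.3 and 102 CPM in siControl and 148, 144 and 168 CPM in siNONO, with a wide gap between the groups (log2 fold change 0.65, standard error 0.0357, adjusted p = 2.32e-08 by edgeR). TIGAR, a phosphatase that lowers glycolysis, rose from 28.9, 29.2 and 25.5 CPM to 43.3, 37.2 and 41.9 CPM (log2 fold change 0.55, adjusted p = 1.87e-05 by edgeR). The sestrins, stress proteins that restrain mTORC1, rose by less, SESN1 by 0.37 and SESN2 by 0.29 on the log2 scale.

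KITLG, the ligand of the KIT receptor and the most abundant member in TPM, was called lower. It had 1763, 1617 and 1502 CPM in siControl and 1621, 1469 and 1221 CPM in siNONO. In CPM the groups overlapped while each Set fell, with ratios of -0.12, -0.14 and -0.30. In TPM the groups were apart, at 458.8 to 515.8 TPM in siControl and 362.2 to 449.1 TPM in siNONO. On the log2 scale KITLG changed by -0.19 (standard error 0.0343, adjusted p = 0.000664 by edgeR), and without the Set as a block the adjusted p by edgeR was 0.127. SPATA18, a regulator of mitochondrial quality, had 9, 8 and 3 counts in siControl and 8, 9 and 9 counts in siNONO, at which depth no difference could be seen.

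Side by side, the median log2 fold changes were 0.52 for arrest, 0.40 for cell death and survival and 0.31 for repair. These groups had 5, 13 and 4 genes tested. Their ranges overlapped widely, from -0.21 to 1.46 for arrest, -0.098 to 0.69 for death and survival and 0.0029 to 0.41 for repair. In Set 1 the medians were 0.47, 0.43 and 0.36, in Set 2 they were 0.56, 0.39 and 0.26, and in Set 3 they were 0.59, 0.40 and 0.28. The order was the same in each Set, but the genes of a role are not replicates, and no test between roles was made.

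Scaled for length, the members covered a wide range of levels. In siControl KITLG stood at 485 ± 28.7 TPM (SD, n = 3), GDF15 at 138 ± 8.59 TPM, CDKN1A at 107 ± 7.11 TPM and RPS27L at 100.5 ± 2.18 TPM. The siControl libraries of CDKN1A ran from 102.1 to 114.8 TPM and those of RPS27L from 98.7 to 102.9 TPM, so these neighbours overlapped. CCNG1 (97.8 ± 7.11 TPM) and MDM2 (93.4 ± 3.64 TPM) overlapped as well. At the other end stood SUSD6 at 3.92 ± 0.288 TPM, SPATA18 at 0.213 ± 0.104 TPM and EDA2R at 0.117 ± 0.0451 TPM. In siNONO, CDKN1A reached 271 ± 16.6 TPM and passed GDF15, which reached 205 ± 19 TPM.

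On the TPM scale the picture was weaker for some genes. Of the 25 members higher by counts, 20 had every siNONO library above every siControl library in TPM and 5 overlapped. MDM2 was among the 5, at 96.4 ± 3.18 TPM in siNONO. The mean length of its transcripts, as RSEM weighted them, was 2943 bases in siControl and 3149 bases in siNONO, with overlapping groups (adjusted p = 0.65 by limma). By limma on log2(TPM + 1), 19 of the 25 kept their call, and MDM2 (adjusted p = 0.498), POLH (0.0922), PPM1D (0.0742), RRM2B (0.0835), SESN2 (0.144) and ZMAT3 (0.258) lost it, as did FBXW7 among the lower members (0.111). The same fit moved the median of all genes to -0.071 and the share of higher genes among all calls to 31.3%, against 49.7% with counts.

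**Figure D3:**
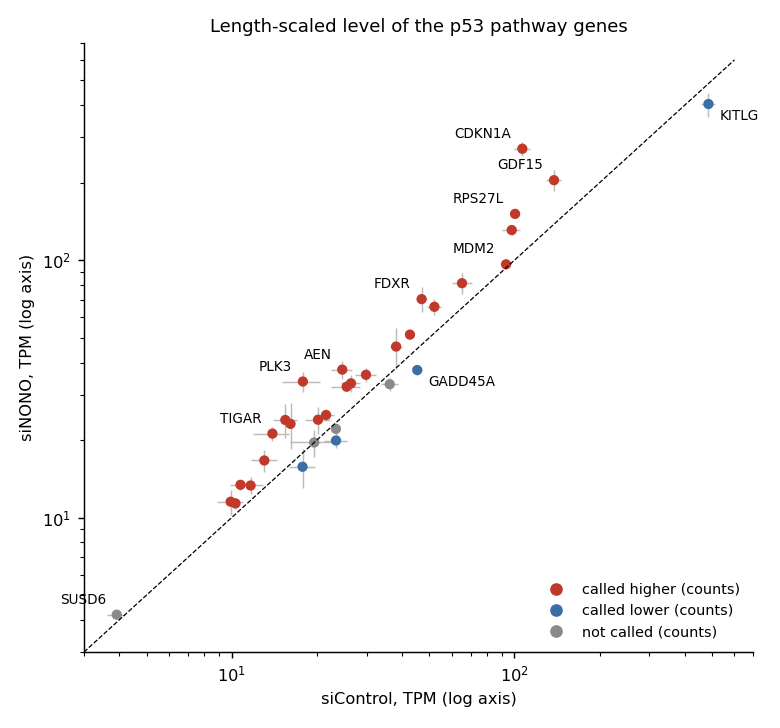
Mean TPM of the 33 p53 genes tested in siControl (horizontal log axis) and siNONO (vertical log axis), with bars for the SD (n = 3), colours for the call made on counts and a dashed line of equal level. CDKN1A rises from 107 to 271 TPM, MDM2 lies close to the line at 93.4 and 96.4 TPM, and KITLG lies below it.

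Transcript length was tested as another readout of the same files. By limma on the log2 of the RSEM mean transcript length, 0 of 14127 genes, or 0%, and 0 of 32 members passed an adjusted p of 0.05. At an unadjusted p of 0.05, 1324 genes (9.37%) and 3 members (9.38%) passed, so the share of members was near that of all genes. The 3 members were PLK2, with 2351 bases in siControl and 2486 bases in siNONO, CDKN1A, with 2053 and 2088 bases, and PMAIP1, with 1765 and 1710 bases. Their adjusted p-values by limma were 0.435, 0.483 and 0.531. With 3 libraries per group this test can miss a shift in length. NONO itself had 2141 bases in siControl and 1825 bases in siNONO, with the groups apart, and was not called (adjusted p = 0.435 by limma).

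Of 25 tested genes of the p53 family and its upstream regulators, 4 were higher and 13 lower. That is 16% and 52%, against 23.2% and 23.4% of all genes, with a median log2 fold change of -0.11. RPL11, a ribosomal protein that can bind and block MDM2, rose from 491 ± 26.4 to 629.5 ± 11.2 CPM (0.36), and SETD7, a methyltransferase, from 205 ± 4.75 to 225.5 ± 11.3 CPM (0.13, adjusted p = 0.00329 by edgeR, and 0.0583 without the block). The lowest were kinases and a coactivator that act on p53. PRKDC, the DNA-dependent protein kinase, fell from 977 ± 24.4 to 753 ± 4.04 CPM (-0.38), HIPK2, a kinase of p53, from 208 ± 6.48 to 161 ± 2.11 CPM (-0.37), and CREBBP, an acetyltransferase, from 130.5 ± 12.3 to 105 ± 3.39 CPM (-0.31).

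A wider list of 59 further p53 targets, of which 58 were tested, had 33 genes higher, 6 lower and 19 not called. That is 56.9% higher and 10.3% lower, against 23.2% and 23.4% of all genes, with a median log2 fold change of 0.17. TLR3, a sensor of double-stranded RNA that interferon also induces, rose from 4.69 ± 0.706 to 13.99 ± 1.51 CPM (log2 fold change 1.60, adjusted p = 3.85e-07 by edgeR). TNFRSF10C, a decoy receptor for TRAIL, rose from 3.01 ± 0.236 to 6.66 ± 0.473 CPM (1.14). DDIT4, an inhibitor of mTORC1, fell from 160 ± 5.22 to 96.7 ± 3.84 CPM (-0.73), TNFRSF10D, another TRAIL decoy receptor, from 95.9 ± 4.76 to 59.5 ± 1.48 CPM (-0.69), and E2F7, a repressor of cell cycle genes, from 44.2 ± 0.57 to 29.8 ± 0.478 CPM (-0.57). The decoy receptors TNFRSF10C and TNFRSF10D thus went in opposite directions.

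p21 also lowers cell division genes through the DREAM repressor complex. All 34 genes of a list of such genes were tested, and 34 were lower (100%, against 23.4% of all genes). Their median log2 fold change was -0.61. The fall of mitotic genes in these cells was known when the list was drawn up, so the count is no independent evidence. FOXM1, a transcription factor of mitotic genes, fell from 135 ± 9.04 to 56.6 ± 5.03 CPM (-1.26), ECT2, which drives cytokinesis, from 155 ± 12.5 to 75.7 ± 8.9 CPM (-1.04), and CCNA2, cyclin A2, from 112 ± 4.48 to 54.9 ± 3.66 CPM (-1.02). These falls stood beside the rise of CDKN1A in the same libraries, and whether one followed from the other was not tested.

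**Figure D4:**
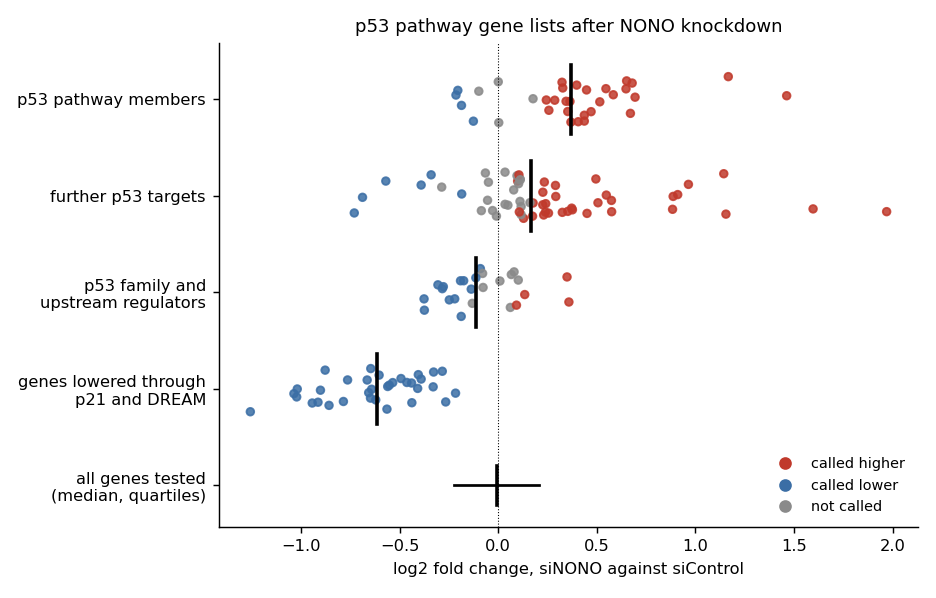
Log2 fold change, siNONO against siControl (horizontal axis), of each tested gene in 4 lists, with black bars at the list medians and, for all genes tested, the median and quartiles. The medians are 0.37 for the p53 genes, 0.17 for the further targets and -0.11 for the upstream regulators. The median is -0.61 for the list named genes lowered through p21 and DREAM. That name is prior knowledge, and a part of p21 or DREAM in these falls was not tested. CHEK1 is in this list and among the upstream regulators.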

How the data were processed

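RNA-seq was available for 3 siControl and 3 siNONO libraries of HCT116 cells. Libraries were made with a stranded mRNA kit. The authors used sickle (version 1.33) for trimming, STAR for alignment to the transcripts of GENCODE version 34 (GRCh37) and RSEM (version 1.3.1) for quantification. Deposited per library were the estimated count, which is not normalized, the TPM, scaled for length and library size, and the mean transcript length per gene, weighted by isoform. Whether RSEM was run with a strand setting is not given in the sources used here.

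Estimated counts were rounded and tested with edgeR (version 4.0.16, quasi-likelihood F-test in its older form), with TMM scaling, the filterByExpr filter and a block for the Set. The study used batch as a covariate, and taking the Set as that batch is an assumption, since the sources do not say what the batches were. Benjamini-Hochberg adjustment ran over 17000 genes, and standard errors were the log2 fold change over the root of F. Set ratios used log2 CPM with a prior count of 2. Lengths were tested with limma (version 3.58.1), leaving out genes of constant length, 1 member (SESN2) among them. Total counts ran from 21765393 to 32659002, and no pair of replicates was alike within sampling noise. Sampling noise alone gives a chi-square of about 1 per degree of freedom. For siNONO Set 3 against Sets 1 and 2 it was 10.3 and 9.5, and between Sets 1 and 2 it was 2.78. For siControl the same values were 6.05, 5.28 and 2.99. The scripts were tested on simulated data. Coordinates came from GENCODE version 44 mapped to GRCh37, and promoters from RefSeq.

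Named were all 35 genes, NONO and, from each of 3 further lists, the 3 highest and 3 lowest called genes whose average log2 CPM was 1 or more. Some genes that this rule names are not reported here. Members, roles and lists were chosen with earlier results of these data known. The p-values measure the spread between these libraries only. The alternatives tried were scaling by DESeq2's size factors or by library size alone, other filters, no block, the edgeR 4 form, DESeq2 (version 1.42.0), limma on log2(TPM + 1), and each library left out. With the Set as a block, leaving out either library of a Set removes the ratio of that Set. Leaving out its siControl or its siNONO library is therefore not a separate check.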

Additional observations from a re-analysis of the deposited data

How the results depend on the processing

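The 25 higher members kept their call under every alternative, except limma on log2(TPM + 1), which kept 19. SUSD6 was a further gene called higher, for 26 in all, with no filter on low counts (adjusted p = 0.0499 by edgeR) and without the Set 1 library of either group. By limma on log2(TPM + 1), 1643 genes were higher, with 9.66% of all genes higher and 21.3% lower. By the same limma fit the upstream list had 2 higher and 8 lower, and the further targets had 16 higher. Its median log2 fold changes were 0.261 (members), 0.333 (arrest), 0.314 (death and survival), 0.227 (repair) and 0.0451 (regulators). DESeq2 with the Set as a block called 2612 genes higher and 2615 lower, 2 members lower and 8 upstream genes lower. Without the replicate block, 2 members (FBXW7 and GADD45A) were called lower and 2 upstream genes were called higher. The regulator median was 0.228 with library size alone and 0.262 with no filter on low counts. Leaving out each library in turn gave 2 to 4 members lower and 2 to 5 upstream genes higher. It gave a death and survival median of 0.392 to 0.447 and a regulator median of 0.227 to 0.263. The members lower fell to 2 without the siControl library of Set 2, and the upstream genes higher to 2 without the Set 1 library of either group. PIDD1 and XPC, neither called, changed sign, PIDD1 at -0.0151 (library size alone), -0.000154 (edgeR 4 form) and -0.0414 to 0.0331 with a library left out, XPC at -0.0127 (library size alone), -0.0768 (limma on TPM) and -0.0794 to 0.0642. Where a cause is not shown by the construction of an alternative, the cause was not tested. The Set numbers come from the labels. Correlations of deviations within Sets 1, 2 and 3 were 0.155, 0.0252 and 0.197 over 15541 genes that had 10 or more counts throughout. Between libraries of unlike Sets they ran from -0.172 to 0.0474, so Set 2 did not stand out at this limit. Over 11708 genes that had 100 or more, they were 0.405, 0.214 and 0.494 within Sets and -0.41 to 0.167 between unlike Sets. The correlations thus depend on this limit. The block changed no call of a member other than those of MDM4 and KITLG. Depth limits EDA2R and SPATA18, and with 3 libraries per group no library was tested as an outlier.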
